A study of Drosophila melanogaster with 3 samples.

Results

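Crystal cells are the blood cells of Drosophila that carry prophenoloxidases, and 4 of their genes are described here, the transcription factors lz and peb and the enzyme genes PPO1 and PPO2. They were chosen by symbol and all 4 were found among the 17490 genes of each count file. RNA was sequenced in bulk from lymph glands, the blood-forming organ of the larva, at 72, 96 and 120 h after egg laying (AEL). All larvae were of the Oregon-R strain, a wild-type laboratory stock, and were kept in steady state, that is, without wasp infestation. Glands were pooled for each library, and according to the methods of the study only primary lobes were kept, after posterior lobes, ring gland and dorsal vessel had been detached. There was 1 library per time point, called the early (72 h AEL), middle (96 h AEL) and late (120 h AEL) library, so replicate spread could not be measured for any difference, no p-value is given, and the comparisons are between these libraries.

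Crystal cells mature in the cortical zone of the lymph gland. A Notch signal from Serrate-expressing cells, together with the GATA factor Serpent, switches on lozenge (lz), a Runx transcription factor that is required for the fate and acts on the prophenoloxidase genes. Hindsight, the zinc finger factor encoded by peb, is expressed in crystal cells and also in trachea, photoreceptors and other epithelia. Prophenoloxidases are copper enzymes that are stored in the cell as inactive zymogens. Released after wounding and cleaved by serine proteases, they oxidise catechols in the first steps of melanin formation. In bulk RNA a change in the number of crystal cells and a change in RNA per cell cannot be told apart.

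On the BDGP6.54 annotation of Ensembl, lz (FBgn0002576) lies on the plus strand of chromosome X from 9284649 to 9303636. It has 2 transcripts that code for 826 and 705 residues. peb (FBgn0003053) lies on the plus strand of chromosome X from 4617564 to 4627206, with 2 transcripts that both code for 1894 residues. PPO1 (FBgn0261362 in the files, FBgn0283437 in that annotation, matched by symbol) lies on the minus strand of chromosome 2R from 17887220 to 17889973, with 6 exons and 690 residues. PPO2 (FBgn0033367) lies on the minus strand of 2R from 9042261 to 9044709, with 4 exons and 684 residues. PPO1 overlaps Elk, a potassium channel gene, and 0 of its exons overlap an exon of Elk.

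The early, middle and late libraries held 49511614, 37922500 and 34278733 counts. Levels are in CPM, counts per 1000000 counts of the library, scaled by trimmed mean of M-values (TMM). Markers of the gland were abundant in each library: the 5 prohemocyte markers summed to 17867 to 20031 CPM and the 8 plasmatocyte markers to 27717 to 43530 CPM. Markers of tissues that adjoin or surround the gland differed between libraries, and the early library stood apart, with 2109 CPM over 6 dorsal vessel and muscle markers, beside 138 and 97.2 CPM in the middle and late libraries.

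All 4 crystal cell genes were between 15.6-fold and 34.6-fold higher by scaled counts in the middle than in the early library, and each stayed within 1.33-fold of its middle level in the late one. For lz, 28, 701 and 736 counts were found in the 3 libraries in order of age, which are 0.541, 18.7 and 22.2 CPM. It was 34.6-fold higher in the middle than in the early library. The 95% interval, exact for a ratio of a pair of Poisson counts, was 23.7 to 52.4, wide because of the 28 counts in the early library. peb had 100, 1407 and 1137 counts, or 1.93, 37.5 and 34.3 CPM, and was 19.4-fold higher in the middle than in the early library (15.9 to 24). Neither regulator was abundant: lz ranked 4702 and peb 3818 by counts in the late library.

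The enzyme genes stood at another scale. PPO1 had 9883, 220079 and 220025 counts, which are 191, 5869 and 6640 CPM, and PPO2 had 24865, 280076 and 328212 counts, or 480, 7469 and 9905 CPM. PPO1 was 30.8-fold higher in the middle than in the early library (30.1 to 31.4) and PPO2 15.6-fold (15.4 to 15.8). By counts PPO2 ranked 278 among all genes in the early library, 9 in the middle library and 6 in the late library, and PPO1 ranked 763, 13 and 12. The pair took 0.0702% of all counts in the early library, 1.32% in the middle library and 1.6% in the late library. PPO RNA was thus well above the detection floor, taken as 3 counts, in the early library. The factor gene lz, at 28 counts and rank 9246 there, was above that floor too.

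**Figure D1:**
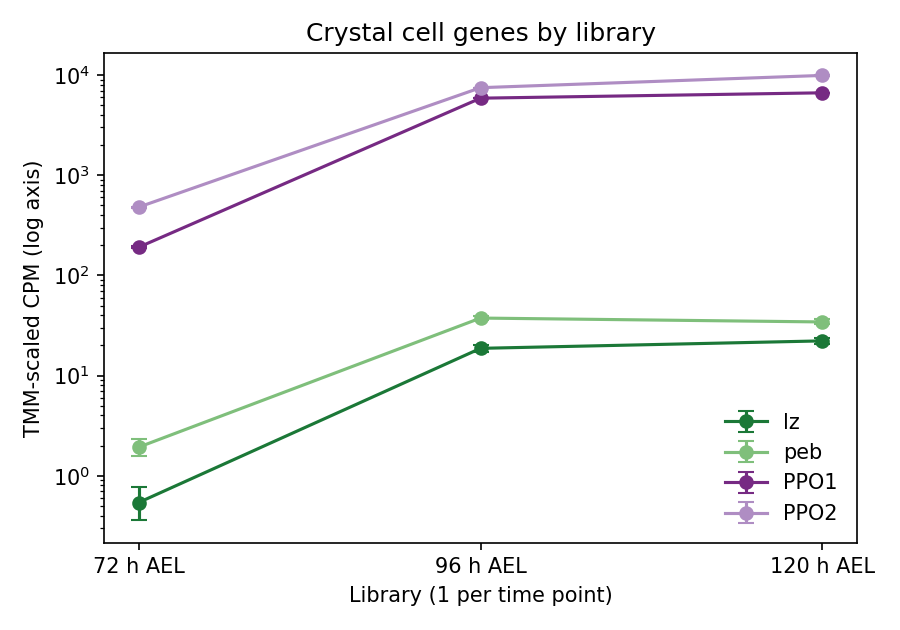
TMM-scaled CPM of lz, peb, PPO1 and PPO2 (log axis) in the libraries at 72, 96 and 120 h AEL, with 1 library per time point and bars for 95% Poisson intervals. The 4 lines rise between the early and middle libraries and are nearly flat afterwards, with PPO1 and PPO2 at 5869 to 9905 CPM and lz and peb at 18.7 to 37.5 CPM in the later libraries.

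How rare such changes were was read against all genes. Of the 9056 genes with at least 1 CPM in a library, 109 (1.20%) were at least 4-fold higher in the middle than in the early library on the log2 scale after adding 1 CPM, and all 4 crystal cell genes were among them, while 781 (8.62%) were lower by as much. Their log2 ratios were 3.68 for lz, 3.72 for peb, 4.94 for PPO1 and 3.96 for PPO2, ranks 17, 16, 5 and 12 from the highest. The median of all tested genes was -0.022 and their 95th percentile 0.97. For the late over the early library, 191 genes (2.11%) were at least 4-fold higher, again with all 4, at log2 ratios of 3.91, 3.59, 5.11 and 4.36 for lz, peb, PPO1 and PPO2. The added 1 CPM lowers the ratios of lz and peb more than those of the enzyme genes, and the 4 genes share a cell type, so they are not independent cases.

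From the middle to the late library only 17 genes (0.188%) passed 4-fold upwards and 6 (0.0663%) downwards, and none of the 4 was among either. PPO2 was 1.33-fold higher in the late than in the middle library (1.32 to 1.33), lz 1.19-fold (1.07 to 1.32) and PPO1 1.13-fold (1.12 to 1.14). peb stood at 0.915 of its middle level (0.845 to 0.99). If each read pair was counted as separate mates, the counts carry less information, and halving them widened the peb interval to 0.817 to 1.02, which includes no change, and that of lz to 1.03 to 1.38. The middle 90% of all tested genes had log2 ratios of -0.46 to 0.52 in this step, and all 4 genes lay inside it. PPO2 at 0.41, lz at 0.24 and PPO1 at 0.18 were above the 75th percentile of 0.15. peb was the lowest of the 4 at -0.13. On the log2 scale of the counts, 95.4% of the difference between the late and early libraries was already present in the middle library for lz, 96.5% for PPO1 and 90.7% for PPO2, and 103% for peb, which was highest in the middle library.

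**Figure D2:**
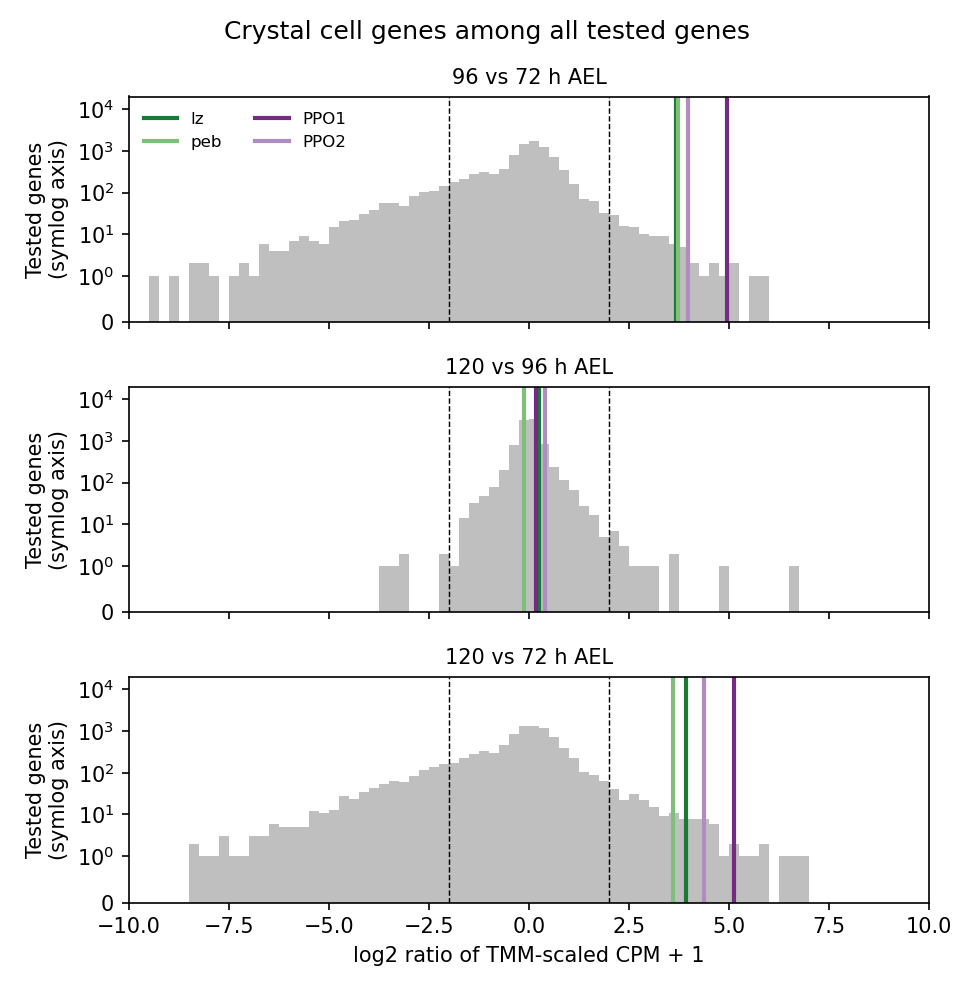
Number of tested genes (symlog axis) by log2 ratio of TMM-scaled CPM + 1, one panel per comparison, with coloured lines for lz, peb, PPO1 and PPO2 and dashed lines at 4-fold. The coloured lines lie in the right tail for the middle and late over the early library, between 3.59 and 5.11. For the late over the middle library they lie between -0.13 and 0.41, inside the dashed lines. All but peb are there above the 75th percentile of the tested genes.

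Ratios between genes of the same library do not depend on the scaling between libraries. They showed that not all of the 4 genes kept constant proportions to each other. PPO2 had 2.52 counts for each count of PPO1 in the early library (95% interval 2.46 to 2.58), 1.27 in the middle library (1.27 to 1.28) and 1.49 in the late library (1.48 to 1.5). The ratio in the middle library was thus 0.506 of that in the early library (0.494 to 0.518), and the one in the late library was 1.17 of that in the middle library (1.16 to 1.18). PPO2 was the more abundant of the pair in all 3 libraries, also per kilobase of exon, at 211, 3276 and 4344 CPM per kilobase, with 81.6, 2510 and 2840 for PPO1. These intervals cover counting error only. PPO1 and PPO2 are related in sequence, and how reads that match both were counted is not given in the sources used here.

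Set against lz, the enzyme genes behaved differently from each other. PPO1 had 353 counts per lz count in the early library (244 to 531), 314 in the middle library (292 to 339) and 299 in the late library (278 to 322), and the ratio in the middle library was 0.889 of that in the early library with an interval of 0.609 to 1.3 that includes no change. PPO2 had 888 counts per lz count in the early library (614 to 1337), 400 in the middle library (371 to 431) and 446 in the late library (415 to 480), and the ratio in the middle library was 0.45 of that in the early library (0.308 to 0.657). The early values rest on the 28 counts of lz.

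The regulators were set against each other in the same way. peb had 3.57 counts per lz count in the early library (2.33 to 5.64), 2.01 in the middle library (1.83 to 2.2) and 1.54 in the late library (1.41 to 1.7). Per kilobase of exon the level of peb was 1.66 times that of lz in the early library (1.08 to 2.63), 0.935 times in the middle library (0.853 to 1.02) and 0.72 times in the late library (0.655 to 0.79). On that scale, by counts as deposited, peb was above lz in the earliest library and below it in the latest, and in the middle library their levels were not distinguishable by counting error. With halved counts the early interval was 0.905 to 3.26 per kilobase, which includes equal levels. The interval for the change of peb to lz between the early and the middle library was then 0.306 to 1.03, which includes no change.

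**Figure D3:**
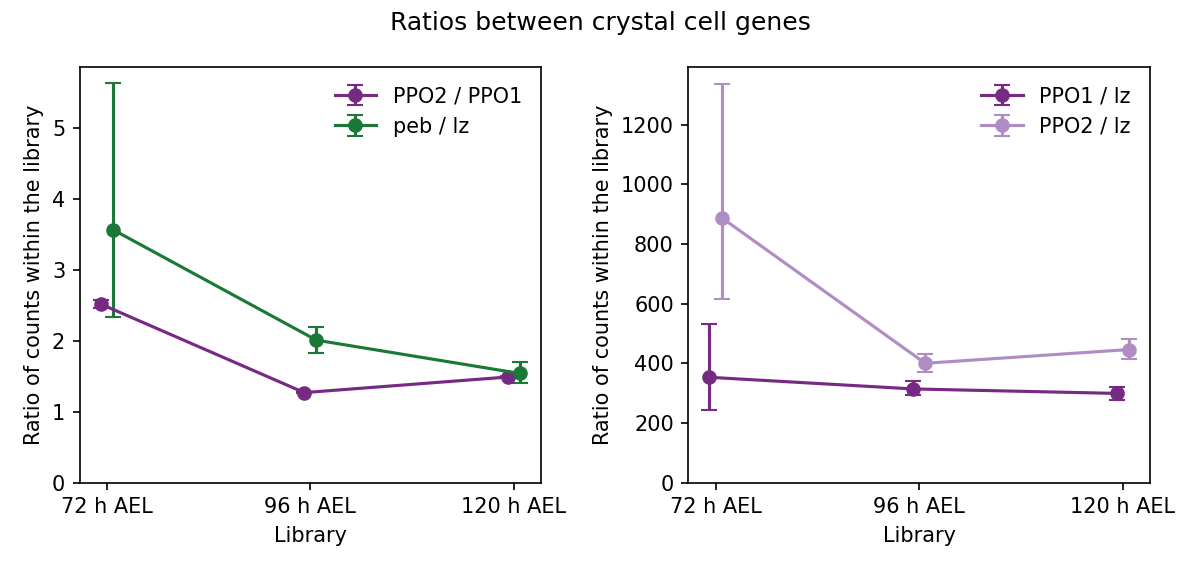
Ratios of counts within each library, PPO2 to PPO1 and peb to lz on the left, PPO1 and PPO2 to lz on the right, with exact 95% intervals for counting error. PPO2 to PPO1 goes through 2.52, 1.27 and 1.49 in the 3 libraries in order of age, and peb to lz through 3.57, 2.01 and 1.54.

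The crystal cell genes were also read against other blood cells of the same library. Per 1000 counts of the 8 plasmatocyte markers together, lz had 0.0195, 0.429 and 0.515 counts in the 3 libraries in order of age and peb 0.0697, 0.862 and 0.795. PPO1 had 6.88, 135 and 154 counts on that scale and PPO2 17.3, 172 and 229. Relative to these markers lz was 26.4-fold higher in the late than in the early library (18.1 to 38.5), peb 11.4-fold (9.3 to 14), PPO1 22.3-fold (21.9 to 22.8) and PPO2 13.2-fold (13.1 to 13.4). Of the 8 plasmatocyte markers 3 were themselves at least 4-fold higher in the late than in the early library, beside 2.11% of all tested genes, namely NimC1, eater and crq, all phagocytosis receptors. By scaled counts they were 12-fold, 5.84-fold and 11.8-fold higher. Pxn, Cg25C, vkg and Hml were 3.55-fold, 2.53-fold, 2.41-fold and 1.53-fold higher. Ppn, the most abundant of the 8 in the early library at 11385 CPM, was at 0.582 of that level in the late one. These markers are named with their values known. The folds relative to plasmatocyte markers thus depend on which markers are taken.

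lz and peb are expressed in other larval tissues, so the markers of those tissues were summed beside them. The 7 eye disc markers summed to 25.2, 18.8 and 1.42 CPM in the 3 libraries in order of age. Of these, eya had 342, 298 and 0 counts and ato 14, 64 and 0, while lz had 736 and peb 1137 counts in the late library. In that library ato, eya and sens were at 0, and gl, so, ey and ro had 12, 12, 13 and 10 counts. Between the early and middle libraries gl went from 51 to 118 counts, 3.2-fold higher (2.28 to 4.53), and ato was 6.31-fold higher (3.5 to 12.2). Both moved in the direction of lz and peb in that step, while so and ey stood at 0.439 and 0.294 of their early levels. ro had 0, 4 and 10 counts over the 3 libraries, the direction of lz and peb. gl is named with its values known. The 5 tracheal markers summed to 202, 18.5 and 12.5 CPM, led by verm with 4382, 288 and 84 counts. Of these 5, 3 were at least 4-fold lower in the late than in the early library, beside 9.67% of all tested genes. In contrast btl, the FGF receptor gene of the trachea, had 78, 78 and 231 counts. It was 4.63-fold higher by scaled counts (3.57 to 6.06), in the same direction as peb. btl was not called after adding 1 CPM and is named with its values known. The 5 neuronal markers summed to 92.7, 9.33 and 8.9 CPM and the 7 ring gland markers to 850, 307 and 133 CPM. The 6 fat body markers had a sum of 141, 297 and 447 CPM, and Fbp1 had 10, 0 and 3479 counts. The part of these tissues in the changes of the 4 genes was not tested.

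**Figure D4:**
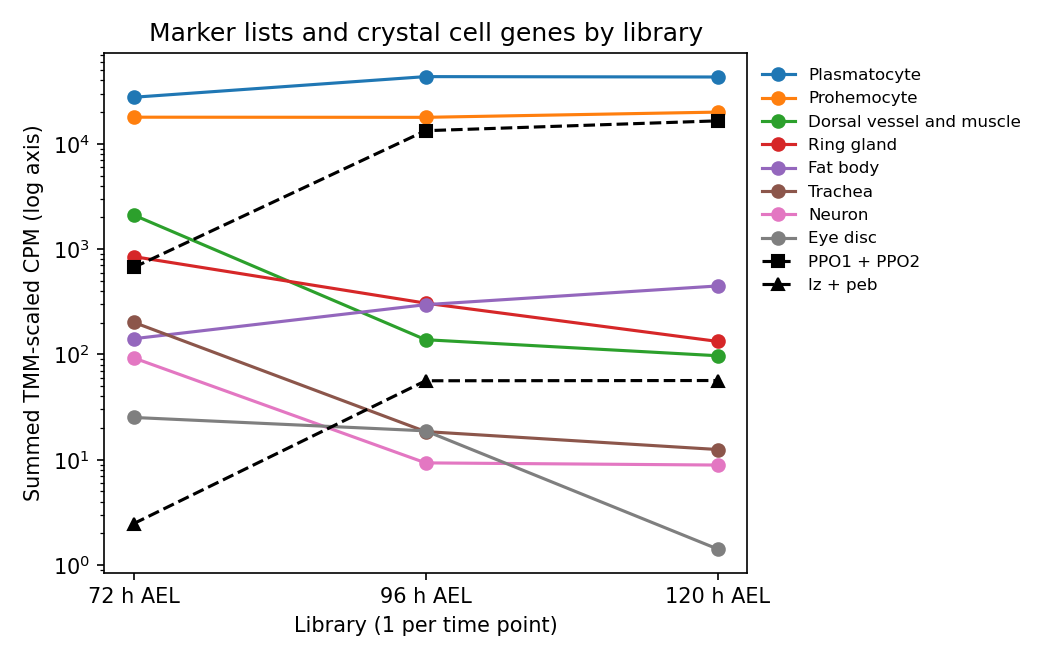
Summed TMM-scaled CPM (log axis) of marker lists of 8 cell types or tissues in the libraries at 72, 96 and 120 h AEL, with the sums of PPO1 and PPO2 and of lz and peb as dashed black lines. The dorsal vessel, trachea, neuron and ring gland lines fall while the crystal cell lines and the fat body line rise, and the eye disc line drops to 1.42 CPM in the late library.

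Among listed regulators of crystal cell fate, all that were tested had smaller ratios over the early library than lz and peb. Of 14 listed genes 12 were tested, 1 was at least 4-fold higher in the late than in the early library and 0 were lower, beside 2.11% and 9.67% of all tested genes, and their median log2 ratio was 0.58, with -0.04 for all tested genes. For the middle over the early library no listed gene passed 4-fold, beside 1.20% higher and 8.62% lower of all tested genes. The median of the list was 0.54. The gene that passed was E(spl)mbeta-HLH, a transcriptional repressor induced by Notch, with 284, 874 and 956 counts in the 3 libraries in order of age and a 5.26-fold higher level in the late than in the early library (4.6 to 6.03). It did not pass with a pseudocount of 5 CPM. The following were named for their roles with their values known. The Notch receptor gene N had log2 ratios of 1.18 for the middle over the early library and -0.08 for the late over the middle library, and its ligand gene Ser 1.31 and -0.33. Dl, another Notch ligand gene of the list, went the other way, with 230, 92 and 38 counts. It was 3.87-fold lower in the late than in the early library (2.74 to 5.61) and was not called. srp, which encodes Serpent, had 324, 516 and 600 CPM. gcm and gcm2, which act in plasmatocyte development, were below the filter, gcm with 14, 0 and 0 counts and gcm2 with 2, 0 and 0.

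Of the Runx genes, lz had by far the most counts in the middle and late libraries. Among the others, run had 26, 2 and 1 counts, RunxA 10, 6 and 0, and RunxB 8, 0 and 0, so that in the early library run was close to the 28 counts of lz. Runx proteins bind DNA with a CBF-beta partner. Of the partner genes, Bgb had 980, 660 and 550 counts and a log2 ratio of -0.18 for the late over the early library, and Bro had 0 in each library, which allows up to 0.0606, 0.0791 and 0.0875 CPM before TMM scaling. Bgb did not pass 4-fold in either direction and is named with its values known.

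Other genes of melanization moved in both directions. Of 13 listed genes 12 were tested, and 3 were at least 4-fold higher and 7 lower in the late than in the early library, beside 2.11% and 9.67% (876) of all tested genes. Their median log2 ratio was -2.21, or -2.84 with counts set to at least 3 and no pseudocount. The higher genes were PPO3, MP1 and yellow-f. PPO3, the prophenoloxidase known from lamellocytes, had 50, 211 and 321 counts and stayed far below PPO1 and PPO2, at 9.69 CPM in the late library. MP1, a clip-domain serine protease of the melanization cascade, had 1406, 4612 and 7017 counts and was 7.8-fold higher in the late than in the early library (7.37 to 8.27). yellow-f, which encodes a dopachrome conversion enzyme, had 283, 2286 and 4576 counts and was 25.3-fold higher (22.4 to 28.6). Its log2 ratio for the late over the middle library was 1.17, above the 0.41 of PPO2.

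The 7 lower genes were Hayan, psh and Sp7, proteases that act in melanization or Toll signalling, Spn77Ba, a serpin that restrains melanization in trachea, Ddc and Pu, which act in dopamine synthesis, and yellow-f2, the second dopachrome conversion enzyme gene. Hayan had 261, 14 and 4 counts in the 3 libraries in order of age, psh had 352, 16 and 2, Ddc had 200, 6 and 2, and yellow-f2 had 429, 2 and 18. Sp7 was 12-fold lower in the late than in the early library (7.64 to 19.8), Spn77Ba 8.3-fold lower (5.91 to 12) and Pu 6.2-fold lower (4.92 to 7.9). ple, which encodes the tyrosine hydroxylase that starts catecholamine synthesis, had 32, 0 and 0 counts, was below the filter and is named with its values known. Several of these genes are also used in trachea or neurons, whose summed markers were lower in the same libraries. Their part in the change was not tested. With a pseudocount of 5 CPM 0 of the list were called lower. With a filter of 10 CPM 1 was, namely Pu, the only one of the 7 that passed that filter.

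Genes that the study drew from its single crystal cells of this organ were higher in part. Of the first 30 names on that list, 26 remained without the 4, and all 26 were tested. For the middle over the early library 8 were at least 4-fold higher and 0 lower, beside 1.20% and 8.62% of all tested genes, and for the late over the early library 9 and 0, beside 2.11% and 9.67%. The list was drawn from the same tissue and stages, so it is not independent evidence of a direction. Its median log2 ratio was 1.31 for the middle over the early library, 0.24 for the late over the middle library and 1.53 for the late over the early library, below the values of the 4 genes for both comparisons with the early library. The highest were CG15343, 82.9-fold higher in the late than in the early library (67.3 to 103), and CG10467, 22.6-fold higher (21.8 to 23.5), a value between those of PPO2 (20.6) and PPO1 (34.8). The other 7 were between 6.43-fold and 11.5-fold higher, among them mthl10, which encodes a G protein-coupled receptor, with 613, 3132 and 2693 counts, and NijB, a Ninjurin gene, with 26, 178 and 191 counts. The other 17 of the list did not pass 4-fold.

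**Figure D5:**
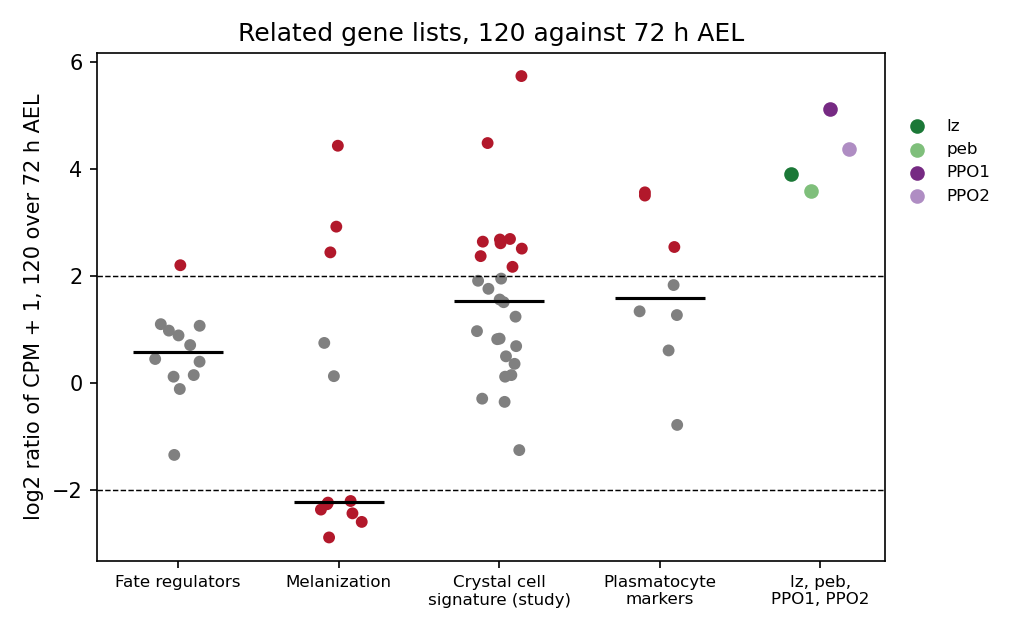
Log2 ratio of CPM + 1 at 120 over 72 h AEL for the tested genes of 4 lists and for lz, peb, PPO1 and PPO2, with red points past 4-fold (dashed lines) and black bars for list medians. The 4 crystal cell genes lie between 3.59 and 5.11, above the medians of 0.58 for fate regulators and 1.53 for the crystal cell signature, while 7 of 12 tested melanization genes lie below the lower dashed line.

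The genes with the most similar course were found by the distance between pairs of log2 ratios, middle over early and late over middle, among the 6522 other genes with at least 10 CPM in a library. With 3 libraries many genes share such a course, and nearness is a description of these libraries. The nearest to lz were CG10764, CG31516, CG42807, PPO2 and Lsp1alpha, at distances of 0.15 to 0.33. The nearest to peb were CG42807, lz, CG31516, CG10764 and CG32816, at 0.33 to 0.54. PPO2 was nearest to CG10467 and CG4793, both at 0.12, then to Lsp1alpha, CG12522 and lz. Lsp1alpha is a larval serum protein gene of the fat body, so a gene made mostly in another tissue lay as close to lz as PPO2 did.

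For PPO1 the nearest genes were CG15343, CG33648, Inos, br and Eip74EF, at 0.45 to 0.7, and PPO2 ranked 8. Inos encodes inositol-3-phosphate synthase, and br and Eip74EF encode transcription factors induced by the moulting hormone ecdysone. br had 1275, 19297 and 21795 counts and Eip74EF 210, 4347 and 6506. These neighbours depended on the added 1 CPM. With 0.1 CPM in its place, 1 of the 5 genes remained among the nearest for each of lz, peb and PPO1, and 3 of 5 for PPO2. The distance of PPO1 from lz, 1.26 on the main scale, is one such case, since by scaled counts the folds of the middle over the early library were 30.8 for PPO1 and 34.6 for lz, with an interval for lz of 23.7 to 52.4 that holds both.

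Elk, the gene that overlaps PPO1, had 80, 698 and 648 counts in the 3 libraries in order of age, which is 0.809%, 0.317% and 0.295% of the counts of PPO1. It was looked at after the position of PPO1 was known. Whether strand was used in counting is not given in the sources used here, so without strand, reads of unspliced Elk RNA and of PPO1 cannot be told apart.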

How the data were processed

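The authors deposited raw counts per gene for 17490 genes in each of 3 bulk RNA-seq libraries, 1 for each time point given in the labels, with no normalization. The submitters' processing notes name FastQC 0.11.8, STAR 2.5.3a, featureCounts 1.6.0 and the build BDGP6. Strand and multi-mapping settings are not given in the sources used here. Total counts ranged from 34278733 to 49511614, and 3 counts correspond to 0.0606 to 0.0875 CPM.

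TMM factors (1.05, 0.989 and 0.967 at 72, 96 and 120 h AEL) were computed with edgeR 4.0.16 in R 4.3.3 on the 9056 genes with at least 1 CPM in a library and applied to the full totals. Log2 ratios were taken after adding 1 CPM and called at 4-fold. Folds of single genes are of scaled counts, with exact Clopper-Pearson 95% intervals; changes of a ratio have log-normal intervals. Intervals cover counting error only, and among genes with 1 to 20 counts 69.6% to 72% had an even count, so they may be too narrow. Lengths and coordinates came from Ensembl release 115 (BDGP6.54), with 17216 of 17490 identifiers matched and PPO1 matched by symbol. Of 116 list entries, 3 were matched through the gene identifier of a current symbol and the rest by the symbol in the files.

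The 4 genes and the lists were chosen with earlier results of these data known. The genes to name were the 4, listed genes past 4-fold at 120 against 72 h AEL, the 3 most abundant genes of each tissue list or those at 3 counts or fewer, and the 5 genes nearest to each of the 4; others are said to be named with their values known. Alternatives were total-count scaling, DESeq2 1.42.0 size factors, pseudocounts of 0.1 and 5 CPM, a 2-fold threshold, thinned counts, a filter of 10 CPM, no filter, halved counts and other denominators. Sequences were not analysed here. Intervals were computed with SciPy 1.17.1 under Python 3.11.15.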

Additional observations from a re-analysis of the deposited data

How the results depend on the processing

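The calls of lz, peb, PPO1 and PPO2 were the same in 7 settings: each passed 4-fold, higher, in the middle and the late against the early library, and none was called between the late and the middle one. For the late over the early library the log2 ratio of lz ranged from 2.3 to 5.12 with the pseudocount, since it had 28 counts in the early library, and that of peb from 2.5 to 4.08, while PPO2 ranged from 4.25 to 4.38. With 1 library per time, the spread between glands is unknown. No paired analysis was possible because each time point has a single library.

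At a 2-fold threshold, 431 genes were higher and 1770 lower for the middle over the early library, 133 higher and 101 lower for late over middle, and 669 higher and 1878 lower for late over early. In the same order of comparisons, adding 0.1 CPM called 194, 76 and 287 genes higher and 1528, 79 and 1617 lower. Adding 5 CPM called 66, 6 and 116 higher and 239, 1 and 276 lower. A filter of 10 CPM left 442, 3 and 507 called lower. For late over early, a 2-fold threshold called 3 fate regulators higher and 1 lower, and 15 crystal cell signature genes higher and 1 lower. Adding 5 CPM called 0 fate regulators higher and 0 melanization genes lower. A filter of 10 CPM called 1 melanization gene lower, since the others called lower did not pass that filter. With prohemocyte markers as denominator, lz was 36.8-fold, PPO1 31.1-fold, PPO2 18.5-fold and peb 15.9-fold higher in the late than in the early library. With Hml alone PPO2 was 13.5-fold higher. The counts of these genes are the same for each denominator, so the shift is that of the marker counts. From the early to the late library the plasmatocyte sum went from 27717 to 43169 CPM. The prohemocyte sum went from 17922 to 20031 CPM.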

Other observations

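Genes of lamellocytes, the other blood cell type that carries a prophenoloxidase, were looked at in the same libraries. Of 5 listed genes, 2 were at least 4-fold higher in the late than in the early library, beside 2.11% of all tested genes. With a pseudocount of 5 CPM 0 were called. With a filter of 10 CPM 1 was, since PPO3 did not pass that filter. The log2 ratios of all 5 were above 0, from 0.21 for atilla to 3.60 for ItgalphaPS4. PPO3 was 10-fold higher (7.43 to 13.8). ItgalphaPS4, an integrin subunit gene, had 0, 227 and 368 counts in the 3 libraries in order of age. With its early count set to a floor of 3, it was 192-fold higher in the late than in the early library, with a lower 95% limit of 65.1. msn and mys had log2 ratios of 0.76 and 1.12 and were not called. atilla, the usual surface marker of lamellocytes, had 342, 140 and 258 counts and was not called. Its fold for the late over the early library was 1.18 (0.999 to 1.39), an interval that includes no change. msn, mys and atilla were named with their values known.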
